A study of Homo sapiens with 39 samples.

Results

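The OTX015 response was compared between lymphoma lines of the activated B cell type, OCILy10 and TMD8, and lines of the germinal centre type, DOHH2 and Toledo. OTX015 (birabresib) is an inhibitor of the BET bromodomains, the pockets by which BET proteins, such as BRD2 and BRD3, bind acetylated histones. The quantity tested was the mean OTX015 minus DMSO change of OCILy10 and TMD8 less that of DOHH2 and Toledo, on the log2 scale. It rests on 23 of the 39 RNA-seq libraries of the series, chosen by line and compound: 3 OTX015 and 3 DMSO libraries each of OCILy10, TMD8 and DOHH2, and 3 OTX015 and 2 DMSO libraries of Toledo. DMSO was the vehicle, and every library carried the label of 6 h of treatment. The other Toledo DMSO library, replicate 2, was left out because genes private to OCILy10 stood there at 73.4% of their OCILy10 level. Toledo's own genes stood there at 33.4%. Private genes were chosen in the 23 libraries used, by limits of 10 CPM in their own line and 1 CPM in other lines. A CPM is a share of a library's counts, as explained below. Other lines' genes reached at most 1.59% in these 23 libraries. The choice itself keeps that value low, so it cannot show if the 23 are free of other lines' RNA. OCILy10, TMD8, DOHH2 and Toledo are established human lymphoma cell lines. Each type is represented by 2 lines, so what belongs to a type cannot be told apart from what belongs to its lines. The labels give no dose, and nothing in them tells if replicate libraries stem from separate cultures, so p-values measure the spread between libraries only.

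BET proteins hold transcription elongation factors at active genes and at enhancers, and BET inhibitors release them from chromatin. A rise of HEXIM1, which encodes an inhibitor of the elongation kinase CDK9, is a known sign of BET inhibition, and MYC is a known BET-dependent gene in many blood cancers. Activated B cell type lymphomas are known for constant NF-kB signalling, high IRF4 and autocrine cytokine signalling through STAT3, and germinal centre type lymphomas for genes of the germinal centre reaction.

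The types were taken from general knowledge of the lines, as the labels do not state them, and were checked against markers in the DMSO libraries. All 10 activated B cell type markers, among them IRF4, BATF and CCND2, had higher mean levels in both OCILy10 and TMD8 than in both DOHH2 and Toledo. Of 8 germinal centre type markers, GCSAM, MME and ITPKB were lower in both OCILy10 and TMD8. BCL6 and LMO2 went the other way, with BCL6 at 65.7 CPM in OCILy10 and 24.1 CPM in TMD8, against 0 CPM in DOHH2 and 1.95 CPM in Toledo. A CPM is a gene's share of its library's counts, after TMM correction for composition. Library totals ran from 1000281 to 11668542 counts and fell into 9 deep libraries of at least 6670250 and 14 shallow ones of at most 2427565, with both kinds in every group, so depth within line was a term of the fit. Of 6 T cell markers 2 could be read, CD2 and TRAC. Their summed level in OCILy10 was 3.76 to 8.58 CPM with OTX015 and 24.7 to 79.4 CPM with DMSO, and at most 1.88 CPM in any library of the other lines. The part of these genes in the OCILy10 response was not tested.

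Between the types, 3 genes differed in their OTX015 response, 0.0237% of the 12643 genes tested (edgeR quasi-likelihood test, Benjamini-Hochberg adjusted p under 0.05, the threshold for every gene called below). ALKBH5 rose in OCILy10 and TMD8, by more than its change in DOHH2 and Toledo, ATF3 fell in OCILy10 and TMD8 and rose in DOHH2 and Toledo, and LIMA1 fell in OCILy10 and TMD8 with no called change in the mean of the other type, so 1 difference was positive (0.00791%) and 2 were negative (0.0158%). An unadjusted p under 0.05 was found for 586 genes (4.63%), a share below the 0.05 that this threshold passes on average where no gene differs. The same test of the difference within a type called 0 genes for OCILy10 less TMD8, with 624 at an unadjusted p under 0.05 (4.94%), and 0 for Toledo less DOHH2, with 1210 (9.57%). These contrasts have unequal precision, and their order is not fixed: with log2 library total as the depth term 930 genes had an unadjusted p under 0.05 between the types and 557 for OCILy10 less TMD8.

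**Figure D1:**
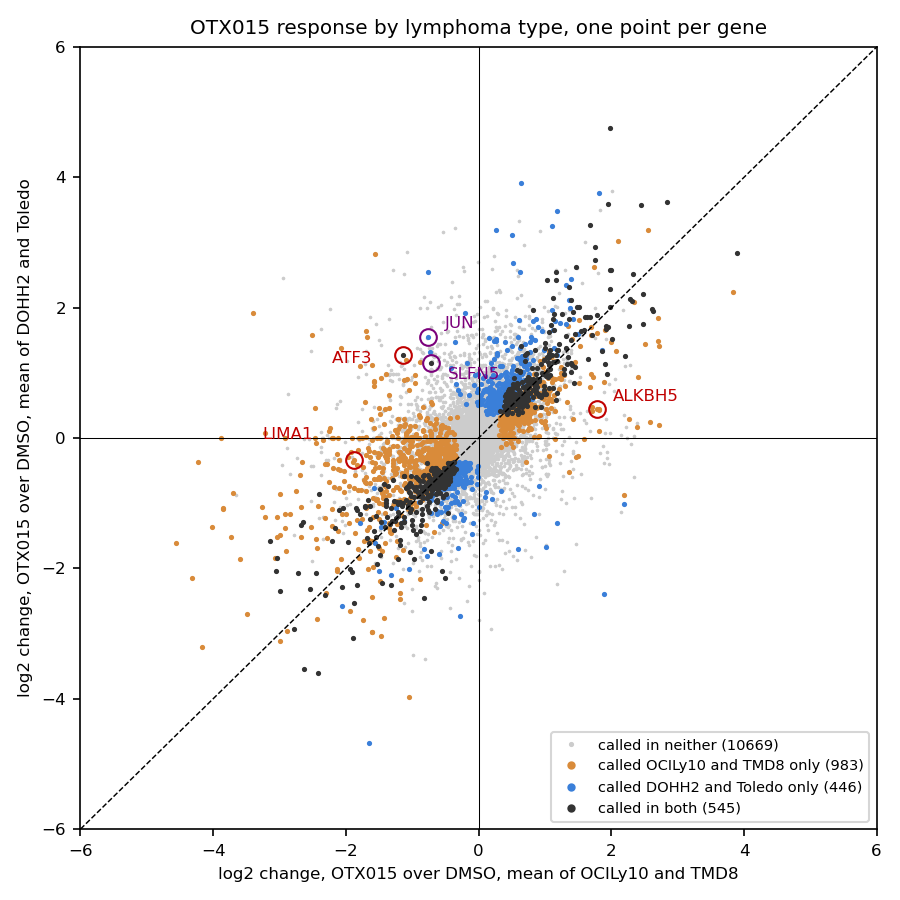
Each point is a gene, with its log2 change (OTX015 over DMSO) averaged over OCILy10 and TMD8 on the x axis and over DOHH2 and Toledo on the y axis. The dashed line marks equal changes. Colours give the type averages in which a gene was called, and 545 were called in both. ALKBH5, ATF3 and LIMA1 (red circles) were called for the difference, and JUN and SLFN5 (purple circles) were not.

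ALKBH5 encodes an RNA demethylase that removes N6-methyladenosine from mRNA; the gene lies at chr17:18183078-18209954 on the plus strand (GRCh38). In OCILy10 it had 275, 302 and 484 CPM with OTX015 and 48.6, 50.1 and 74.5 CPM with DMSO. In TMD8 it had 106, 172 and 134 CPM with OTX015 and 50.4, 85.3 and 53.4 CPM with DMSO. In both lines every OTX015 library lay above every DMSO library. In DOHH2 it had 111, 125 and 121 CPM with OTX015 and 90.8, 97.7 and 117 CPM with DMSO, and in Toledo 103, 136 and 180.1 CPM with OTX015 and 59.4 and 111 CPM with DMSO, and in each of these lines the groups overlapped. The log2 change was 2.44 ± 0.20 in OCILy10 and 1.12 ± 0.19 in TMD8, against 0.23 ± 0.19 in DOHH2 and 0.65 ± 0.22 in Toledo (± SE). Beside 226 higher calls in OCILy10 (1.79%) and 137 in TMD8 (1.08%), it was called in OCILy10 (adjusted p = 2.45e-06) and TMD8 (adjusted p = 0.00209) and not in DOHH2 (adjusted p = 0.606) or Toledo (adjusted p = 0.127). The difference between the types was 1.34 ± 0.20 (95% interval 0.92 to 1.76, adjusted p = 0.0246). With OCILy10 left out it was 0.74 and was not called (adjusted p = 0.411), and with DOHH2 left out it was not called either. Over the 23 fits without 1 library each it ran from 1.27 to 1.43 with adjusted p of 0.0016 to 0.185. Its call was lost in 9 of these, without OTX015 replicate 1 of OCILy10, TMD8 or Toledo, OTX015 replicate 2 or 3 of DOHH2, DMSO replicate 3 of OCILy10 or Toledo, or DMSO replicate 1 of TMD8 or Toledo.

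ATF3 encodes a stress-induced bZIP transcription factor of the ATF/CREB family, which pairs with JUN proteins; the gene lies at chr1:212565334-212620777 on the plus strand. In OCILy10 it had 32.6, 57.8 and 70.4 CPM with OTX015 and 61.0, 56.8 and 141 CPM with DMSO, and the groups overlapped. In TMD8 it had 43.2, 37.1 and 54.9 CPM with OTX015 and 89.4, 56.7 and 196 CPM with DMSO, with every OTX015 library below every DMSO library. In DOHH2 it had 15.6, 78.0 and 52.0 CPM with OTX015 and 6.85, 14.7 and 17.3 CPM with DMSO, and the lowest OTX015 library, the deep one, lay within the DMSO range. In Toledo it had 5.27, 12.3 and 8.88 CPM with OTX015 and 3.75 and 3.04 CPM with DMSO, low levels at which every OTX015 library nevertheless lay above both DMSO libraries. The log2 change was -0.99 ± 0.32 in OCILy10 and -1.30 ± 0.32 in TMD8, against 1.70 ± 0.36 in DOHH2 and 0.85 ± 0.57 in Toledo. Only the TMD8 fall (adjusted p = 0.021) and the DOHH2 rise (adjusted p = 0.0148) were called in a single line. Averaged over lines, ATF3 fell in OCILy10 and TMD8 (-1.14 ± 0.23, adjusted p = 0.00231) and rose in DOHH2 and Toledo (1.28 ± 0.33, adjusted p = 0.0235). The difference was -2.42 ± 0.40 (95% interval -3.26 to -1.59, adjusted p = 0.0343). It was not called with OCILy10 or with DOHH2 left out. The call was kept without DMSO replicate 1 of DOHH2 or OCILy10, DMSO replicate 2 or 3 of TMD8, or OTX015 replicate 1 of DOHH2, and was lost without any of the other 18 libraries, at -2.89 to -2.06 with adjusted p of 0.00114 to 0.19 over all 23. The rise in the mean of DOHH2 and Toledo lost its call without DMSO replicate 3 or OTX015 replicate 2 of DOHH2, or without DMSO replicate 1, DMSO replicate 3 or OTX015 replicate 1 of Toledo.

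LIMA1 encodes EPLIN, a LIM domain protein that binds and bundles actin filaments; the gene lies at chr12:50175788-50283546 on the minus strand. In OCILy10 it had 47.5, 113 and 82.8 CPM with OTX015 and 145, 199 and 293 CPM with DMSO. In TMD8 it had 104, 72.0 and 80.5 CPM with OTX015 and 328, 331 and 388 CPM with DMSO. Every OTX015 library of these lines lay below every DMSO library of the same line. In DOHH2 it had 56.9, 102 and 106 CPM with OTX015 and 95.4, 149.9 and 250.1 CPM with DMSO, with overlap, and in Toledo 5.27, 13.6 and 9.73 CPM with OTX015 and 5.94 and 6.08 CPM with DMSO, a line that held little LIMA1 with either agent. The log2 change was -1.73 ± 0.22 in OCILy10 (adjusted p = 0.000312) and -2.03 ± 0.21 in TMD8 (adjusted p = 2.62e-05), against -0.87 ± 0.21 in DOHH2 (adjusted p = 0.0286) and 0.20 ± 0.37 in Toledo (adjusted p = 0.834). LIMA1 thus fell in DOHH2 too, and Toledo was the line without a called fall. The difference between the types was -1.54 ± 0.26 (95% interval -2.08 to -1.003, adjusted p = 0.0343). It was -0.99 with Toledo left out (adjusted p = 0.328), and it was not called with OCILy10, TMD8 or DOHH2 left out either. Its call was kept without DMSO replicate 3 of DOHH2, DMSO replicate 1 or OTX015 replicate 2 of OCILy10, or DMSO replicate 2 of TMD8. It was lost without any of the other 19 libraries, at -1.90 to -1.35 with adjusted p of 0.0277 to 0.254 over all 23.

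**Figure D2:**
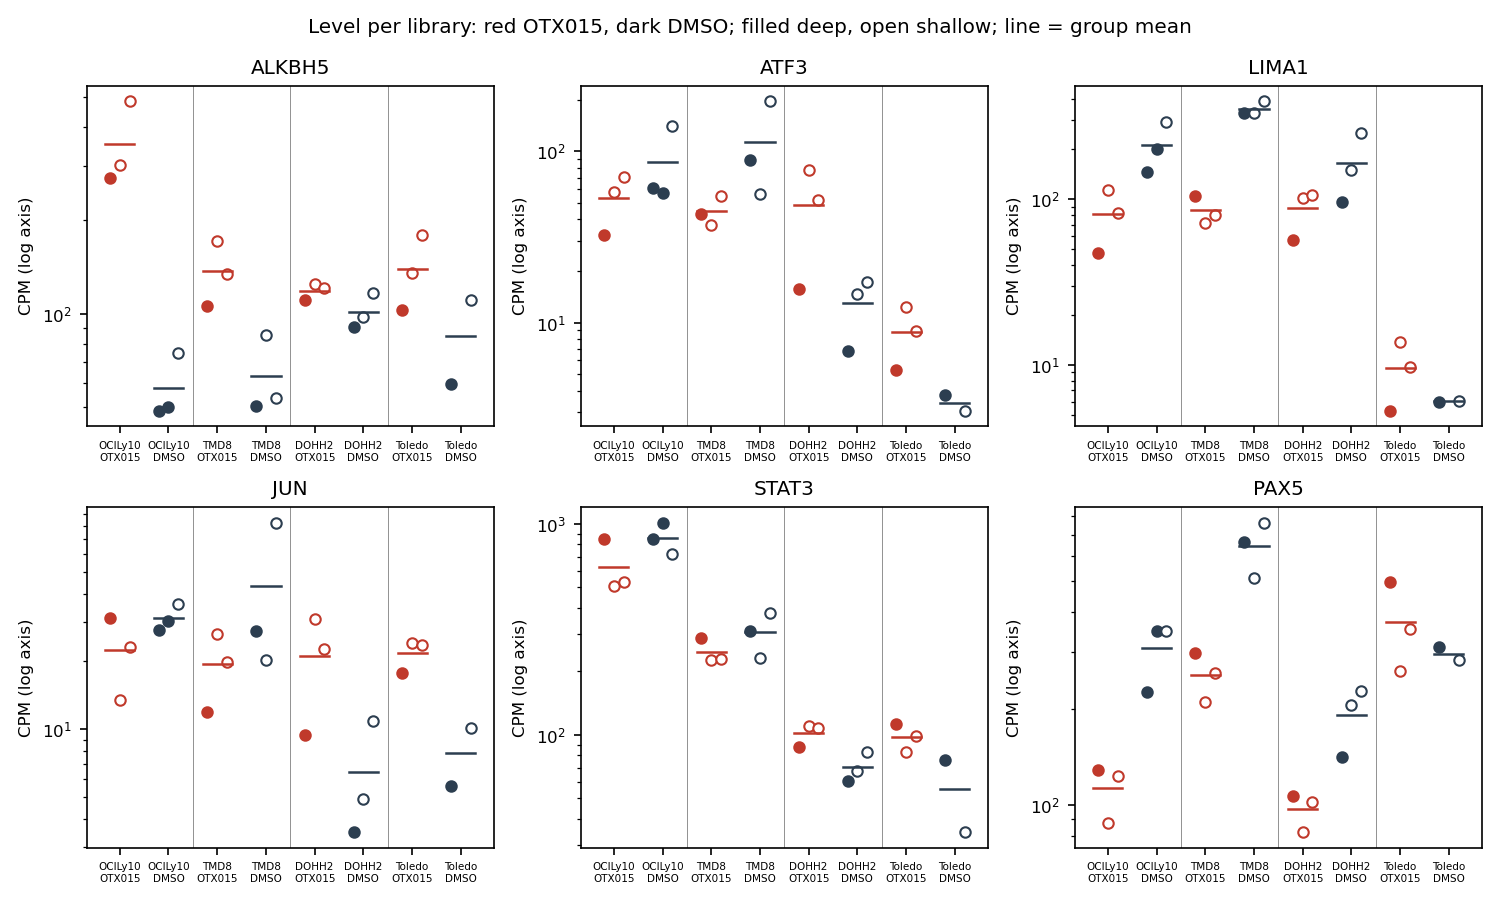
Level in CPM (log axis) of 6 genes in each of the 23 libraries, OTX015 in red and DMSO in dark, for OCILy10, TMD8, DOHH2 and Toledo from left to right. Filled points are deep libraries, open points shallow ones, and bars are group means. ALKBH5 with OTX015 lies above DMSO without overlap in OCILy10 and TMD8, and LIMA1 below it.

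The next 12 genes by p did not pass and are named after their values were seen. JUN, the partner of FOS and ATF proteins in AP-1, had 31.1, 13.5 and 23.1 CPM with OTX015 and 27.7, 30.3 and 36.0 CPM with DMSO in OCILy10. It had 11.9, 26.4 and 19.9 CPM with OTX015 and 27.3, 20.4 and 82.4 CPM with DMSO in TMD8, and in both lines the groups overlapped. JUN had 9.39, 31.0 and 22.8 CPM with OTX015 and 3.48, 4.92 and 10.9 CPM with DMSO in DOHH2, also with overlap. In Toledo, where the groups were apart, it had 17.8, 24.04 and 23.7 CPM with OTX015 and 5.62 and 10.1 CPM with DMSO. JUN had a log2 change of -0.76 ± 0.26 in the mean of OCILy10 and TMD8 (adjusted p = 0.0628), rose in that of DOHH2 and Toledo (1.56 ± 0.33, adjusted p = 0.00739; not called without Toledo DMSO replicate 1 or OTX015 replicate 1), and differed by -2.32 ± 0.42 (adjusted p = 0.068). ATF3 and JUN thus had the same order of types. Their promoters are shown because an 8-base ATF/CREB-type element, TGACNTCA, searched on both strands, was found in both, in capitals (RefSeq, GRCh38.p14, 250 bases before to 50 bases after a transcription start, 5′ to 3′ on the gene's strand).
ATF3, chr1:212565157-212565456, plus strand: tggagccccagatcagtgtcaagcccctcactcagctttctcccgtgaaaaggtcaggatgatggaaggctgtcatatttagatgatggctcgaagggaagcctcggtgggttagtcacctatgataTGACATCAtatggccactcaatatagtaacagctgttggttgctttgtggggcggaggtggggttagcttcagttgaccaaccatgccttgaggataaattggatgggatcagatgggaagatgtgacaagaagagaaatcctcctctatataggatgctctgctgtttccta
JUN, chr1:58783998-58784297, minus strand: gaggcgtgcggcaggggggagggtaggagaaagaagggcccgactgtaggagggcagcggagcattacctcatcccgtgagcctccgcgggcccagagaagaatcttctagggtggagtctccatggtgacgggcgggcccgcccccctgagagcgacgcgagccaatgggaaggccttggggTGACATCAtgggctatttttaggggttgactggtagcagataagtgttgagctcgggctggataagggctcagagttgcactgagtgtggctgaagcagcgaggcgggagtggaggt

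The match began 123 bases before the start in ATF3 and 67 bases before it in JUN, with the same letters. A second ATF3 promoter, chr1:212614768-212615067, held no match, and counts per gene do not tell which ATF3 promoter was in use in these lines. Of 35116 promoters of that length, 2710 (7.72%) held the element on either strand, so a match alone is common, and binding was not measured.

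DEPP1, a FOXO-induced gene linked to autophagy, fell in OCILy10 (-1.88 ± 0.39, adjusted p = 0.00904) and TMD8 (-3.02 ± 0.50, adjusted p = 0.00139), against log2 changes of -0.43 ± 0.39 in DOHH2 and 0.29 ± 0.46 in Toledo, a difference of -2.38 ± 0.44 (adjusted p = 0.068). The DEPP1 groups overlapped in OCILy10, DOHH2 and Toledo. They were apart in TMD8, where the OTX015 libraries held only 7, 5 and 4 counts. SLFN5, an interferon-inducible Schlafen family gene, had 28.0, 14.3 and 42.3 CPM with OTX015 and 91.7, 80.9 and 73.4 CPM with DMSO in TMD8, without overlap, and 40.0, 93.2 and 75.3 CPM with OTX015 and 33.2, 41.9 and 79.5 CPM with DMSO in OCILy10. In DOHH2 SLFN5 had 35.1, 149 and 241 CPM with OTX015 and 19.9, 79.3 and 101 CPM with DMSO, with overlap, and in Toledo 5.64, 7.80 and 3.81 CPM with OTX015 and 2.03 and 3.04 CPM with DMSO. It fell in the mean of OCILy10 and TMD8 (-0.72 ± 0.19, adjusted p = 0.0172), which came from TMD8, since OCILy10 was at 0.09 ± 0.27, and it rose in the mean of DOHH2 and Toledo (1.16 ± 0.29, adjusted p = 0.0211). Its difference of -1.88 ± 0.35 was not called (adjusted p = 0.068).

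STAT3 is the transcription factor of IL-6 and IL-10 signalling. It had 845, 509 and 530.0 CPM with OTX015 and 850.3, 1010.2 and 723 CPM with DMSO in OCILy10 and 288, 225 and 229.5 CPM with OTX015 and 312, 232 and 379.7 CPM with DMSO in TMD8, the lines with more STAT3 RNA, and the groups overlapped. It had 87.4, 111 and 108 CPM with OTX015 and 60.4, 67.6 and 83.4 CPM with DMSO in DOHH2 and 113, 82.5 and 98.9 CPM with OTX015 and 76.2 and 34.5 CPM with DMSO in Toledo, with groups apart in both lines. Its mean log2 change was -0.31 ± 0.13 in OCILy10 and TMD8 (adjusted p = 0.132), and it rose in the mean of DOHH2 and Toledo (0.74 ± 0.15, adjusted p = 0.00698), though not without Toledo DMSO replicate 3. The difference was -1.05 ± 0.20 (adjusted p = 0.0851). CYB561A3, a lysosomal ferric reductase gene, had the same order, with a log2 change of -0.35 ± 0.14 (adjusted p = 0.129) in OCILy10 and TMD8 and a rise of 0.82 ± 0.18 (adjusted p = 0.0101) in DOHH2 and Toledo. Unlike those of STAT3, its groups overlapped in DOHH2 and Toledo too, and so in every line. CCDC112 went the other way, with 0.34 ± 0.18 (adjusted p = 0.253) in OCILy10 and TMD8 and a fall of -0.82 ± 0.17 (adjusted p = 0.00623) in DOHH2 and Toledo. The differences of both missed the threshold (adjusted p = 0.108 for CYB561A3 and 0.14 for CCDC112).

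Several of these genes belong to B cell identity. MS4A1, which encodes the surface antigen CD20, fell in every line, with groups apart in all 4. It had 744, 637 and 617 CPM with OTX015 and 1391, 1241 and 969.8 CPM with DMSO in OCILy10 and 1180.4, 562 and 1026 CPM with OTX015 and 1760.4, 1260.4 and 1482 CPM with DMSO in TMD8. It had 32.9, 49.8 and 34.2 CPM with OTX015 and 122, 205 and 183 CPM with DMSO in DOHH2 and 121, 67.6 and 69.3 CPM with OTX015 and 304 and 184 CPM with DMSO in Toledo. The fall was -0.72 ± 0.14 in the mean of OCILy10 and TMD8 (adjusted p = 0.00173) and -1.73 ± 0.15 in that of DOHH2 and Toledo (adjusted p = 5.09e-06), and the difference of 1.01 ± 0.20 was not called (adjusted p = 0.108). POU2AF1, the B cell coactivator of octamer-binding factors, fell in OCILy10 and TMD8 (-1.43 ± 0.18, adjusted p = 5.15e-05) with groups apart in both. The mean of DOHH2 and Toledo was -0.16 ± 0.18 (adjusted p = 0.643), over lines whose mean levels went opposite ways. With OTX015 and DMSO in that order these were 539 and 401 CPM in DOHH2 and 308 and 476 CPM in Toledo, with overlap in both. PAX5, the factor that maintains B cell commitment, had 128, 87.9 and 123 CPM with OTX015 and 226, 350.0 and 351 CPM with DMSO in OCILy10 and 299, 209 and 258 CPM with OTX015 and 663, 513 and 762 CPM with DMSO in TMD8, with OTX015 below DMSO throughout. In DOHH2 PAX5 had 106, 81.9 and 102 CPM with OTX015 and 141, 205 and 226 CPM with DMSO, again apart, and in Toledo 499, 263 and 356 CPM with OTX015 and 311 and 283 CPM with DMSO, with overlap. PAX5 fell by line in OCILy10 (-1.44 ± 0.24), TMD8 (-1.35 ± 0.23) and DOHH2 (-0.94 ± 0.24, adjusted p = 0.0377), and its change in Toledo was 0.38 ± 0.26 (adjusted p = 0.458). The differences between types were -1.26 ± 0.26 for POU2AF1 (adjusted p = 0.108) and -1.11 ± 0.24 for PAX5 (adjusted p = 0.151).

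TAF9, a subunit of the general factor TFIID, rose in OCILy10 and TMD8 (0.89 ± 0.12, adjusted p = 7.84e-05), against 0.02 ± 0.13 in DOHH2 and Toledo, a difference of 0.87 ± 0.18 (adjusted p = 0.108). COL1A1 and PKP4 complete the 12, and both rest on libraries with few or no counts. COL1A1, a fibrillar collagen gene, reached at most 7.13 CPM with OTX015 and 13.5 CPM with DMSO in any library. PKP4, a plakophilin gene, had 1.16, 0 and 0 CPM with OTX015 and 0, 0 and 0 CPM with DMSO in TMD8, so no fold is given for it there.

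**Figure D3:**
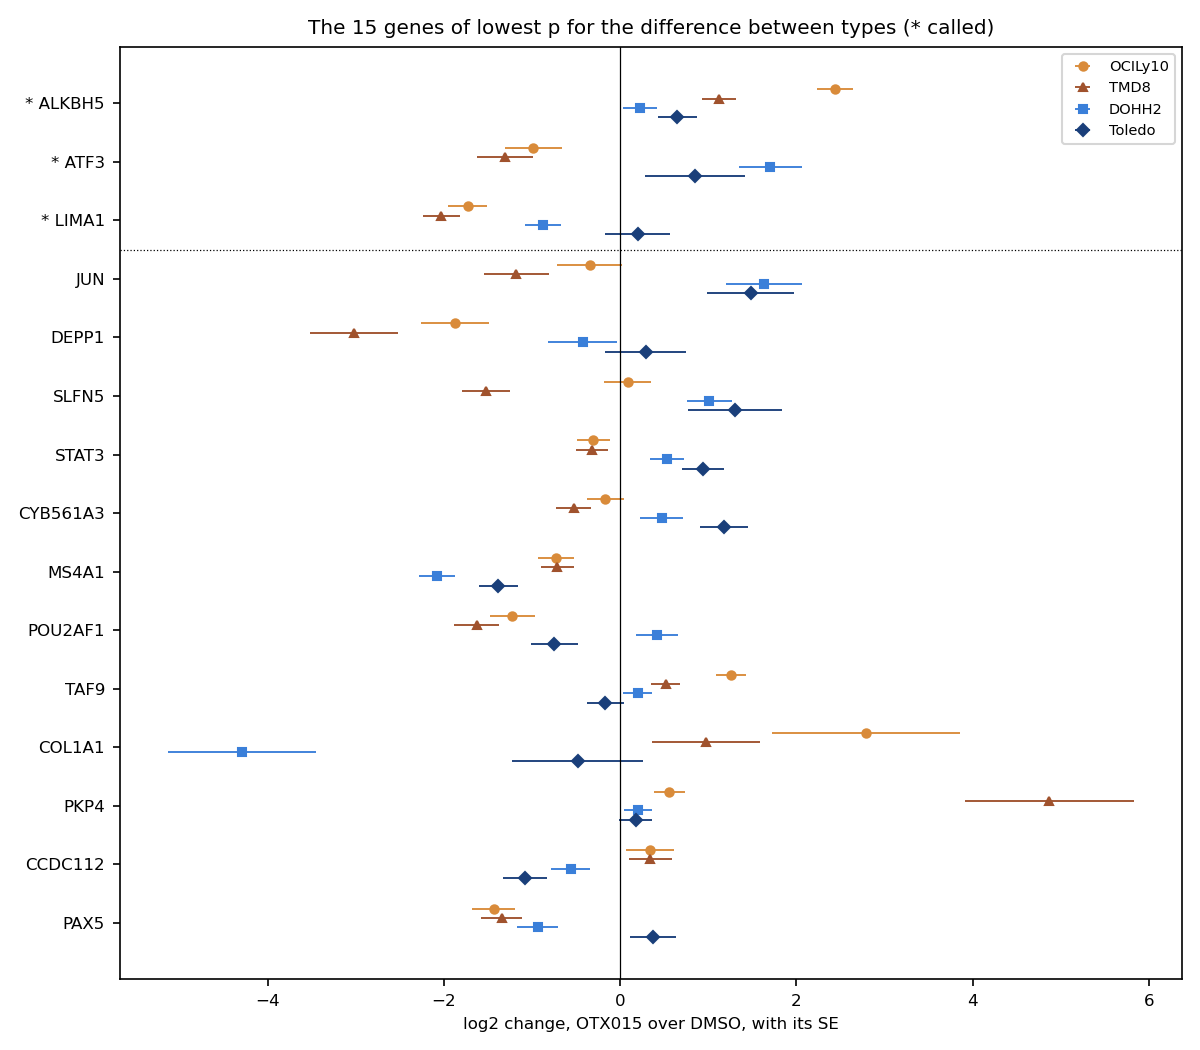
Log2 change (OTX015 over DMSO, bar: SE) in OCILy10, TMD8, DOHH2 and Toledo for the 15 genes of lowest p for the difference, lowest p at the top. The 3 above the dotted line were called. The PKP4 point of TMD8 is a fitted value over 0 DMSO counts and has no size that can be read.

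Each type had called genes when tested alone. The mean of OCILy10 and TMD8 gave 1528 called genes (12.1%), 600 higher (4.75%) and 928 lower (7.34%), and that of DOHH2 and Toledo gave 991 (7.84%), 522 higher (4.13%) and 469 lower (3.71%). With DESeq2's size factors in the same fit the split for DOHH2 and Toledo was 420 higher and 574 lower. By line, 542 genes (4.29%) were called in OCILy10, of which 316 were lower (2.5%), and 527 (4.17%) in TMD8, of which 390 were lower (3.08%). There were 363 (2.87%) in DOHH2, 184 higher (1.46%) and 179 lower (1.42%), and 116 (0.918%) in Toledo, 56 higher (0.443%) and 60 lower (0.475%). With the replicate number as a block in the same fit, 994 genes were called in TMD8 and 843 in DOHH2. Lower calls of at least 2-fold numbered 403 in OCILy10 and TMD8 and 130 in DOHH2 and Toledo, and higher ones 176 and 175 in the same order. These counts follow the spread and depth of each line's libraries as well as the size of its changes, and without the depth term 324 genes were called in OCILy10 and TMD8 and 102 in DOHH2 and Toledo.

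In all, 545 genes were called in both types, 35.7% of those called in OCILy10 and TMD8 and 55.0% of those called in DOHH2 and Toledo. Of the 545, 261 rose in both, 282 fell in both, and 2, ATF3 and SLFN5, went opposite ways. Of the 1974 genes called in either type, 1830 (92.7%) had the same sign in both. Across the 12643 genes, Pearson's r of the 2 type means was 0.54 and Spearman's rho 0.59, a description over genes that are not independent of each other. The 95% interval of the difference lay within 2-fold either way for 7149 genes (56.5%), and for 1122 of the 1974 (56.8%). It lay wholly beyond 2-fold for 22 genes, with no adjustment for the number of genes. For the remaining genes neither a 2-fold difference nor its absence was shown at this depth, the median SE of the difference being 0.31.

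HEXIM1 stood higher with OTX015 in every line, with groups apart in all 4. It had 112, 121 and 243 CPM with OTX015 and 35.1, 41.8 and 73.5 CPM with DMSO in OCILy10, and 120.2, 218 and 312 CPM with OTX015 and 46.5, 56.7 and 70.0 CPM with DMSO in TMD8. It had 83.4, 141 and 209 CPM with OTX015 and 33.1, 44.9 and 55.2 CPM with DMSO in DOHH2, and 152, 279 and 236 CPM with OTX015 and 31.1 and 70.0 CPM with DMSO in Toledo. The rise was 1.63 ± 0.17 in OCILy10 and TMD8 (adjusted p = 1.18e-05) and 1.85 ± 0.19 in DOHH2 and Toledo (adjusted p = 3.17e-05), and the difference was -0.22 ± 0.25 with a 95% interval of -0.75 to 0.31, inside 2-fold. Of 26 tested genes for BET proteins, CBP/p300 and elongation factors, 5 rose (19.2%) and 0 fell in each type. Of all genes 4.75% rose in OCILy10 and TMD8 and 4.13% in DOHH2 and Toledo. HEXIM1, BRD2 and AFF1 were among the risers of the list in both. BRD2, itself a BET protein, rose by 0.50 ± 0.10 in OCILy10 and TMD8 (adjusted p = 0.00306) and by 0.52 ± 0.11 in DOHH2 and Toledo (adjusted p = 0.00647), a difference with a 95% interval of -0.33 to 0.29. CDK9, the elongation kinase, was called higher in OCILy10 and TMD8 (0.70), and ELL2, a subunit of the super elongation complex, in DOHH2 and Toledo (0.66).

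Of 16 histone genes tested, 11 rose in OCILy10 and TMD8 (68.8%, beside 4.75% of all genes). In DOHH2 and Toledo 10 rose (62.5%, beside 4.13%), and 0 fell in either type. The list's median change was 1.32 in OCILy10 and TMD8 and 2.09 in DOHH2 and Toledo, beside -0.02 and 0.02 over all genes, and none of its members was called for the difference. By line 4, 7, 5 and 1 members rose in OCILy10, TMD8, DOHH2 and Toledo, where 1.79%, 1.08%, 1.46% and 0.443% of all genes rose. Mean DMSO levels under 1 CPM were found for 7 of the 16 in Toledo, 5 in DOHH2, 3 in OCILy10 and 0 in TMD8. The part of low levels in the medians was not tested. H2BC11 rose by 1.98 and 2.57, and H2AC6 by 1.75 and 2.73, in OCILy10 and TMD8 and in DOHH2 and Toledo in that order. Counts of polyadenylated forms of such genes depend on how RNA was selected, which is not given in the sources used here. Among 48 tested MYC targets of growth and ribosome making, 18 fell in OCILy10 and TMD8 (37.5%, beside 7.34% of all genes). In DOHH2 and Toledo 12 fell (25%, beside 3.71%). None rose in either type, and the medians were -0.37 and -0.35. MYC itself was a member of this list and among the 18. PRMT5, an arginine methyltransferase, fell by 0.53 in OCILy10 and TMD8 and by 0.65 in DOHH2 and Toledo, and MRTO4, a ribosome assembly factor, by 0.65 and 0.74. Without Toledo DMSO replicate 3, 1 target was called lower in DOHH2 and Toledo.

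MYC itself went unevenly across the lines. It had 53.4, 28.5 and 34.0 CPM with OTX015 and 224, 63.8 and 337 CPM with DMSO in TMD8, where the groups were apart, and 165, 65.4 and 66.7 CPM with OTX015 and 154, 143 and 112 CPM with DMSO in OCILy10. In DOHH2 it had 249.6, 174 and 109.6 CPM with OTX015 and 303, 285 and 201 CPM with DMSO, and in Toledo 301, 201 and 200.4 CPM with OTX015 and 224 and 182 CPM with DMSO, with overlap in these lines and in OCILy10. MYC fell in TMD8 (-2.44 ± 0.39, adjusted p = 0.00116) and, through TMD8, in its type's mean (-1.35 ± 0.27, adjusted p = 0.00251), with -0.27 ± 0.37 in OCILy10 (adjusted p = 0.736). The mean of DOHH2 and Toledo was -0.16 ± 0.27 (adjusted p = 0.79), and the difference of -1.19 ± 0.38 had an unadjusted p of 0.00556 and an adjusted p of 0.67 in edgeR's test. IRF4, the plasma cell and activated B cell factor, fell in OCILy10 and TMD8 (-0.82 ± 0.18, adjusted p = 0.00533). The mean of DOHH2 and Toledo was -0.19 ± 0.19 (adjusted p = 0.6), over lines whose mean levels went opposite ways. With OTX015 and DMSO in that order these were 1012 and 742 CPM in DOHH2 and 129 and 241 CPM in Toledo, with overlap in both. The IRF4 difference of -0.63 ± 0.26 was not called (adjusted p = 0.961), and it was 0.034 with DOHH2 left out. BRD3, PRDM1, BCL2 and CDKN1A were called in neither type mean nor for the difference, with differences of -0.04, 0.27, -0.25 and -0.43 in that order. BCL6 had 0 counts in the DOHH2 DMSO libraries and no fold is given. SERPINI1 was too low to be tested.

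Interferon-stimulated genes had the lowest median difference of all the gene lists read. Of 40 tested, 32 fell (80%, beside 7.34% of all genes) and 0 rose in OCILy10 and TMD8. In DOHH2 and Toledo 7 fell (17.5%, beside 3.71%) and 2 rose (5%, near the 4.13% of all genes). The median changes were -1.83 and -0.75 in the same order of types. The 7 falls in DOHH2 and Toledo were 0 without Toledo DMSO replicate 3, 3 without Toledo DMSO replicate 1 or OTX015 replicate 1, and 5 to 11 without any other single library. None of the 40 was called for the difference; its median over the list was -1.14, with 40 of 40 below 0 beside 56.1% of all genes, and 19 of 40 (47.5%) had an unadjusted p under 0.05 beside 4.63% of all genes. The list was written with earlier results of these data known, and its genes share regulators, so these shares are a description. By line the medians were -0.97 in OCILy10, -2.50 in TMD8, -0.95 in DOHH2 and -0.65 in Toledo. In that order 10, 32, 2 and 1 members fell, where 2.5%, 3.08%, 1.42% and 0.475% of all genes fell. The median difference was -0.43 with TMD8 left out and -1.87 with OCILy10 left out. Mean DMSO levels under 1 CPM were found for 9 of the 40 in Toledo, 3 in OCILy10, 1 in TMD8 and 1 in DOHH2. The part of low levels in these counts was not tested.

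OAS2, an antiviral oligoadenylate synthetase gene, stood lower with OTX015 in every line, with groups apart in all 4. It had 64.9, 86.4 and 64.5 CPM with OTX015 and 177, 253 and 175 CPM with DMSO in OCILy10, and 28.9, 6.42 and 14.6 CPM with OTX015 and 349, 136 and 236 CPM with DMSO in TMD8. It had 71.6, 40.4 and 79.7 CPM with OTX015 and 145, 132 and 307 CPM with DMSO in DOHH2, and 6.65, 5.85 and 4.65 CPM with OTX015 and 15.8 and 9.13 CPM with DMSO in Toledo. OAS2 fell in OCILy10 (-1.49 ± 0.34, adjusted p = 0.0156), TMD8 (-3.85 ± 0.36, adjusted p = 1.03e-05) and DOHH2 (-1.56 ± 0.32, adjusted p = 0.0128), with -1.12 ± 0.51 in Toledo (adjusted p = 0.243), and OCILy10 less TMD8 was 2.36 ± 0.48 (adjusted p = 0.173). XAF1, an interferon-induced death-promoting gene, fell in OCILy10 (-3.18) and TMD8 (-4.30), and TRIM22, an antiviral ubiquitin ligase gene, fell in both types, by 2.04 in OCILy10 and TMD8 and by 1.08 in DOHH2 and Toledo. STAT2, a transcription factor of the interferon-activated complex, had a log2 change of -0.14 ± 0.15 in OCILy10 and TMD8 and rose in DOHH2 and Toledo (0.66 ± 0.16, adjusted p = 0.0157). IRF7, the other called rise there, had 15.2, 3.90 and 11.4 CPM with OTX015 and 0.625 and 0 CPM with DMSO in Toledo, so its size rests on a near-zero DMSO level.

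**Figure D4:**
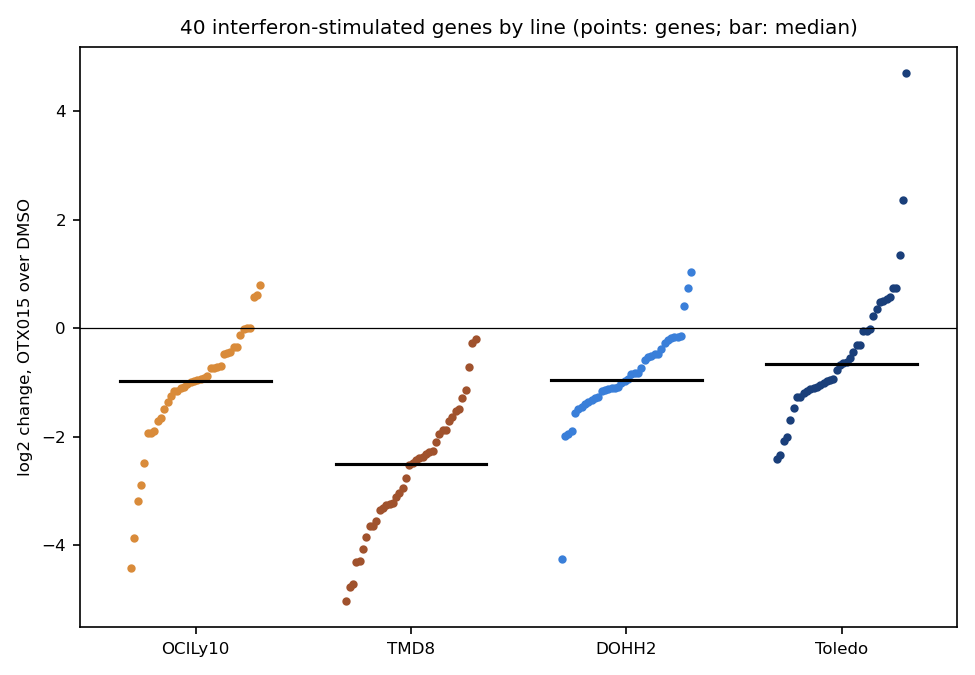
Log2 change (OTX015 over DMSO) of the 40 tested interferon-stimulated genes in OCILy10, TMD8, DOHH2 and Toledo, each point a gene, sorted within a line, and each bar the median. TMD8 has the lowest median, -2.50, and the other 3 lines lie between -0.97 and -0.65.

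Of 39 NF-kB targets tested, 13 fell (33.3%, beside 7.34% of all genes) and 0 rose in OCILy10 and TMD8 (median -0.49). In DOHH2 and Toledo 4 fell (10.3%, beside 3.71%) and 2 rose (5.13%, near the 4.13% of all genes), with a median of 0.05. The median of the difference was -0.49, with 34 of 39 below 0, and 0 were called for it. CXCL10, a chemokine that also answers to interferon, fell by 3.59 in OCILy10 and TMD8 (adjusted p = 2.05e-07). CD80, a costimulatory ligand, fell in both types, by 1.22 and 1.85, and the 2 rises in DOHH2 and Toledo were REL, an NF-kB subunit gene (0.77), and NFKBIA, which encodes the inhibitor IkB-alpha (0.75). Of 19 JAK-STAT and cytokine feedback genes, 7 fell (36.8%, beside 7.34%) and 0 rose in OCILy10 and TMD8, STAT5A (-1.10) among them. In DOHH2 and Toledo 0 fell and 2 rose (10.5%, beside 4.13%), STAT3 and the kinase gene JAK1 (0.51). Of 19 Toll-like receptor and MYD88 genes, 6 fell in OCILy10 and TMD8 (31.6%, beside 7.34%). In DOHH2 and Toledo 4 fell (21.1%, beside 3.71%) and 1 rose (5.26%, near the 4.13% of all genes). The receptor genes CD180, TLR7 and TLR10 fell in both types, and MYD88, the adaptor, fell in OCILy10 and TMD8 (-0.86 ± 0.12, adjusted p = 0.000124), against -0.27 ± 0.13 in DOHH2 and Toledo (adjusted p = 0.215). The difference for MYD88 was -0.59 ± 0.18 (adjusted p = 0.592).

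Of 30 immediate early genes, 4 rose (13.3%, beside 4.75% of all genes) and 2 fell (6.67%, near the 7.34% of all genes) in OCILy10 and TMD8, with a median of 0.11. In DOHH2 and Toledo 9 rose (30.0%, beside 4.13%) and 1 fell (3.33%, near 3.71%), with a median of 0.53. JUND and EGR1, growth-induced transcription factor genes, and ZFP36, an mRNA decay factor gene, rose in both types, JUND by 0.65 in OCILy10 and TMD8 and by 1.41 in DOHH2 and Toledo. IER2 rose in DOHH2 and Toledo (0.90 ± 0.17, adjusted p = 0.00427). ATF3 was the 1 member of this list, and of the 22 ATF4 and ER stress genes, that was called for the difference. Beside ATF3, the ER stress list held calls for SESN2, higher in both types (1.06 and 1.25), PPP1R15A, higher in DOHH2 and Toledo (0.95), and XBP1 and SLC7A11, lower in OCILy10 and TMD8.

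Over all genes tested, 7.34% fell and 4.75% rose in OCILy10 and TMD8, and 3.71% fell and 4.13% rose in DOHH2 and Toledo, and the counts of the following lists stand beside these shares. Of 30 B cell transcription factor genes, 12 fell (40.0%) and LMO2 rose in OCILy10 and TMD8, and 8 fell (26.7%) and 0 rose in DOHH2 and Toledo, and the other members passed in neither direction. IKZF1, the Ikaros gene, fell by 1.02 in OCILy10 and TMD8 and by 0.89 in DOHH2 and Toledo, and CIITA, the master regulator of MHC class II genes, by 0.85 and 1.16. Of 30 B cell receptor pathway genes, 7 fell and 3 rose in OCILy10 and TMD8, and 6 fell and 1 rose in DOHH2 and Toledo. LAT2, an adaptor downstream of the receptor, fell by 1.57 and 1.43 in the same order of types, and the kinase gene FYN rose in both. Of 30 genes that mark the activated B cell type, 10 fell and 1 rose in OCILy10 and TMD8, and 7 fell and 3 rose in DOHH2 and Toledo, so falls in this list were not confined to the lines it marks. Of 27 germinal centre type genes, 5 fell and 4 rose in OCILy10 and TMD8, and 3 fell and 1 rose in DOHH2 and Toledo. Of 17 plasma cell genes, 6 fell (35.3%) in OCILy10 and TMD8 and 2 (11.8%) in DOHH2 and Toledo, and 1 rose in each type (5.88%), near the share of all genes.

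The remaining lists are read beside the same shares of all genes. Among autophagy and lysosome genes (32 tested), 6 were higher and 1 lower in OCILy10 and TMD8, and 7 rose and 1 fell in DOHH2 and Toledo, with ULK1, SQSTM1, NEU1 and MAP1LC3B higher in both. TXNIP and ARRDC3, arrestin genes that restrain glucose uptake, rose in both types, TXNIP by 0.87 and 0.82. Of 18 chemokine and receptor genes, 9 fell (50%) in OCILy10 and TMD8, and 2 fell (11.1%) and 1 rose (5.56%) in DOHH2 and Toledo. Of 16 MHC class II genes, 4 fell in OCILy10 and TMD8 and 5 in DOHH2 and Toledo. Of 17 MHC class I genes, 3 fell in OCILy10 and TMD8, and 1 fell and 1 rose in DOHH2 and Toledo. Of 11 survival genes, of the BCL2 family and others, 3 fell in OCILy10 and TMD8 and 0 in DOHH2 and Toledo. The 3 were BCL2L1, BCL2A1 and, from outside that family, BIRC3. Of 20 death genes, of that family and others such as CASP8 and APAF1, 3 fell and 1 rose in OCILy10 and TMD8. In DOHH2 and Toledo 2 of these fell and 1 rose. Of 24 p53 targets, 3 rose and 1 fell in each type. Of 39 cell cycle genes, 3 fell in OCILy10 and TMD8 and 1 rose in DOHH2 and Toledo. Of 23 cholesterol synthesis genes, 1 fell in OCILy10 and TMD8 and 2 rose in DOHH2 and Toledo. Of 18 Notch pathway genes, 5 rose and 2 fell in OCILy10 and TMD8 and 2 rose in DOHH2 and Toledo. Of 25 glycolysis genes, 3 rose and 2 fell in OCILy10 and TMD8 and 3 rose in DOHH2 and Toledo. None of the 47 ribosomal protein genes or 15 mitochondrially encoded genes was called in any of these contrasts. A call in 1 type alone is not a difference between the types, and of all these lists only those holding ATF3 had a member called for the difference.

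**Figure D5:**
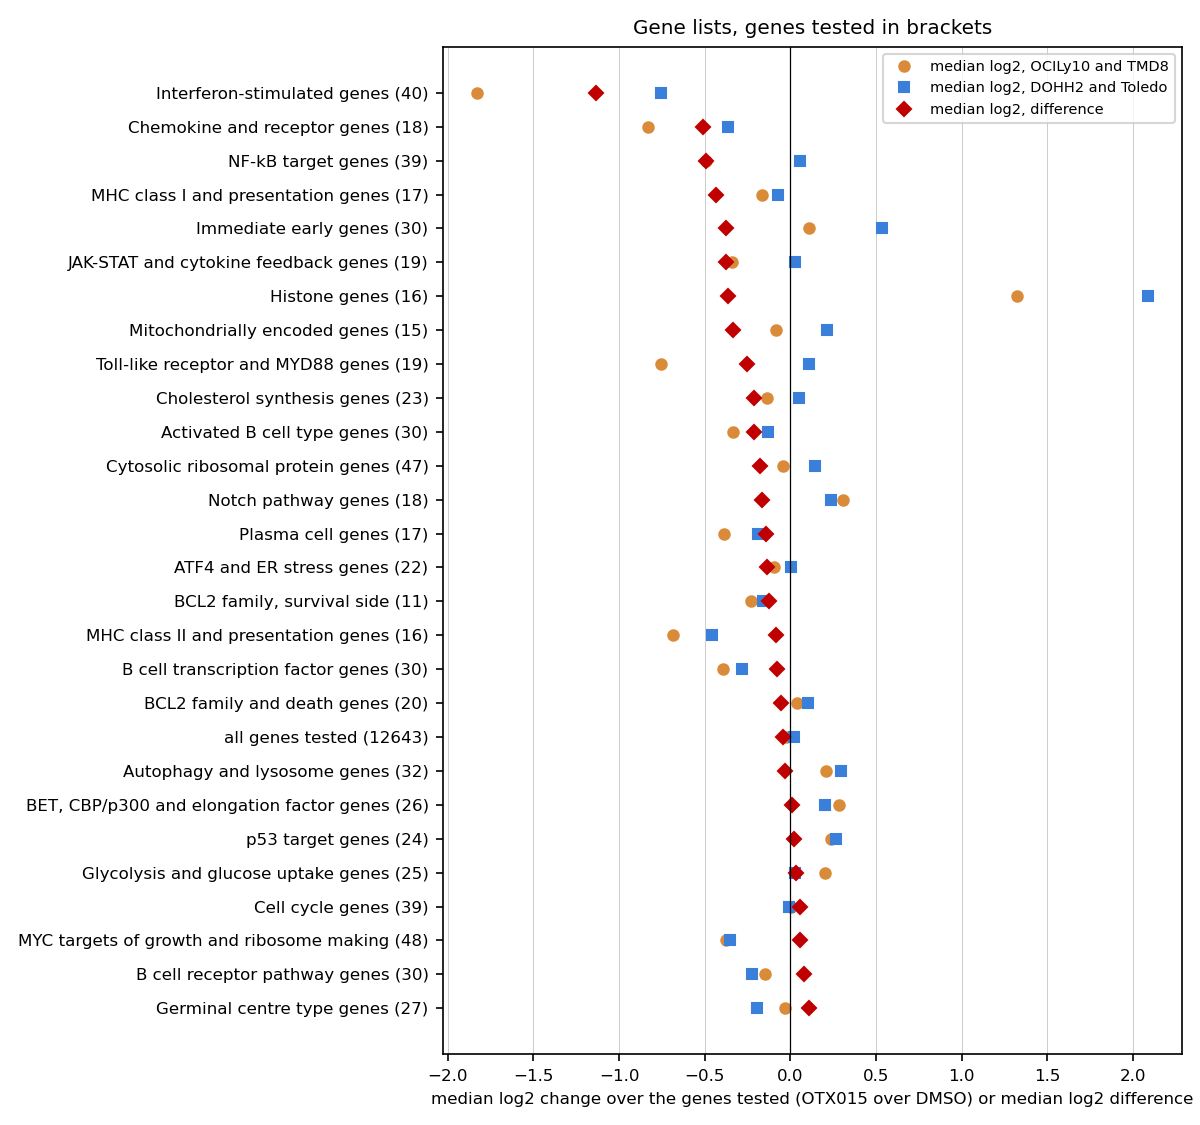
Median log2 change (OTX015 over DMSO) of each gene list in OCILy10 and TMD8 (orange circles) and in DOHH2 and Toledo (blue squares), and median log2 difference of the responses (red diamonds), with the number of genes tested in brackets. Interferon-stimulated genes have the lowest median difference, -1.14, and all genes stand at -0.04.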

How the data were processed

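RNA-seq libraries of 4 lymphoma lines were compared, and the members of the comparison, the gene lists and the tests were chosen with earlier results of these data known. The authors deposited whole-number counts per gene for 15808 gene IDs. STAR, edgeR and hg38 are named in the submitters' processing notes, without versions. Per the labels' protocols, Trizol was used for RNA and an Illumina TruSeq RNA kit for library preparation. No source used here names the counting program, its annotation or the strandedness, so reads of overlapping genes cannot be told apart. All 39 columns matched a sample title. Coordinates were attached from GENCODE release 29 by gene ID without its version (15668 IDs, 3781 of them of the same version). Symbols came by gene ID from a separate list of gene names, and from release 29 where that list held none. Promoter sequences are from RefSeq. Label text shared by all samples names other compounds and a longer treatment, and each sample's own label was used.

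Counts were scaled by TMM, genes were kept by filterByExpr by group (12643 genes), and edgeR 4.0.16 in R 4.3.3 fitted 8 groups and a deep or shallow coefficient (deep: at least 5000000 counts) in each line, 12 coefficients with 11 residual degrees of freedom. Contrasts were tested by quasi-likelihood F-tests with Benjamini-Hochberg adjustment over all genes tested, called under 0.05. The code was tested on simulated data. Genes were named by rule: up to 12 of each direction called for the difference, with both lines of a type on the same side of both of the other; a fixed set that included MYC, HEXIM1 and IRF4; and up to 4 called members of lowest p from each list, leaving out those whose fold rests on a group near 0 counts. Some genes that this rule names are not reported here. The next 12 genes by p were added after their values were seen. Depth gives precision through the SE of each value. Alternatives used DESeq2 1.42.0, limma 3.58.1, other scalings, filters, depth terms and libraries left out. Tables and figures were made with Python 3.11.15, pandas 2.3.3 and matplotlib 3.10.9.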

Additional observations from a re-analysis of the deposited data

Results flagged for a closer look

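ALKBH5 (difference 1.34), ATF3 (difference -2.42) and LIMA1 (difference -1.54) were singled out because a test of the difference itself parted OCILy10 and TMD8 from DOHH2 and Toledo. Of 39 alternative settings ALKBH5 was called in 24, ATF3 in 13 and LIMA1 in 11, and none reversed any of the 3. In the shallow libraries alone the differences were 1.40 for ALKBH5, -3.18 for ATF3 and -1.90 for LIMA1, none of them called.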

How the results depend on the processing

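The count for the difference between the types, 3 genes, was 20 with DESeq2, 0 with limma-voom, 6 with no filter on low counts, 0 with no depth term, 1 with a shared depth coefficient, 8 with log2 library total as the depth term, 0 with Toledo DMSO replicate 2 kept, 12 with all 13 groups in 1 fit, 0 in the shallow libraries alone, 0 with OCILy10 left out and 0 with DOHH2 left out, and 0 to 8 without single libraries. OCILy10 less TMD8, 0 genes, gave 8 with DESeq2, 1 with log2 library total and 0 to 2 without single libraries, and Toledo less DOHH2, 0 genes, gave 6 with DESeq2, 3 with all 13 groups and 0 without any single library. OCILy10 and TMD8 had 324 called genes with no depth term, 652 with Toledo DMSO replicate 2 kept and 555 to 1866 without single libraries, under 1000 without OTX015 replicate 1 of OCILy10 (555) or TMD8 (935), OCILy10 DMSO replicate 3 (781) or TMD8 DMSO replicate 1 (932). DOHH2 and Toledo had 631 with limma-voom, 102 with no depth term and 181 to 1223 without single libraries, with the lowest counts without Toledo DMSO replicate 3 (181), DMSO replicate 1 (260) or OTX015 replicate 1 (282), and 504 to 624 without single DOHH2 libraries other than DMSO replicate 2.

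The alternatives for single lines and for genes called in both types were chosen after seeing the data. With DESeq2, DOHH2 had 641 calls and Toledo 463, and with limma-voom 189 and 40. With no depth term OCILy10 had 9, TMD8 65, DOHH2 4 and Toledo 0. OCILy10 had 341 with a shared depth coefficient, and with log2 library total DOHH2 had 224 and Toledo 263. With Toledo DMSO replicate 2 kept, OCILy10 had 77, TMD8 153, DOHH2 42 and Toledo 187, and with all 13 groups OCILy10 had 937, DOHH2 678 and Toledo 259. Without single libraries OCILy10 had 19 to 674, TMD8 157 to 618, DOHH2 43 to 444 and Toledo 0 to 318. Genes called in both types numbered 53 with no depth term, 349 with limma-voom, 713 with DESeq2, 311 with Toledo DMSO replicate 2 kept and 140 to 725 without single libraries; no gene was called in opposite directions with limma-voom, with no depth term, with Toledo DMSO replicate 2 kept, or without either Toledo DMSO library or Toledo OTX015 replicate 1. The cause of these moves was not tested.

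With the replicate block and the depth term together the counts were 16 for the difference, 22 for OCILy10 less TMD8, 5 for Toledo less DOHH2, 2715 for OCILy10 and TMD8, 2023 for DOHH2 and Toledo, 1947 for OCILy10, 994 for TMD8, 843 for DOHH2 and 1469 for Toledo. That fit had 17 coefficients and 6 residual degrees of freedom. Deviations of same-numbered OTX015 and DMSO libraries from their group means, depth included, correlated at 0.33 to 0.90 in 10 of 11 pairs. Among these was every pair of TMD8, DOHH2 and Toledo. OCILy10 number 2, a shallow OTX015 and a deep DMSO library, stood at -0.59. The labels do not say what the numbers share, so they were not taken to pair the libraries. With depth removed the 6 pairs of shallow libraries correlated at -0.10 to 0.16. The deep pairs of TMD8, DOHH2 and Toledo stood at -1, which the fit forces, and that of OCILy10 at -0.51. The fit also ties the shallow deviations to the deep ones, so these values cannot show if the numbers pair the libraries.

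Values that turned their sign were near 0 or rested on 1 line or library. With Toledo DMSO replicate 2 kept the STAT3 difference was 0.033, the CDKN1A difference 0.22, and in DOHH2 and Toledo STAT3 was -0.34, ELL2 -0.32 and CDKN1A -0.34; the median differences of NF-kB targets (0.21), JAK-STAT genes (0.15) and chemokine genes (0.24) turned as well. The HEXIM1 difference was 0.0206 with OCILy10 left out and 0.0212 with Toledo left out. The BRD2 difference was 0.0072 with DESeq2's size factors, 0.0217 with library totals, 0.0084 with DESeq2, 0.0086 with the replicate block, 0.0345 with OCILy10 left out, 0.25 with DOHH2 left out and -0.12 to 0.056 without single libraries. The BRD3 difference was 0.0026 with library totals, 0.0335 with all 13 groups, 0.25 with TMD8 left out, 0.30 with Toledo left out and -0.23 to 0.090 without single libraries. The IRF4 difference was 0.0344 with DOHH2 left out, the PRDM1 difference -0.16 with Toledo and the BCL2 difference 0.073 with TMD8 left out. In OCILy10 and TMD8, BCL2 was 0.039 with no depth term and CDKN1A 0.048 with the replicate block and -0.27 to 0.053 without single libraries. Of the interferon-stimulated genes 23 to 33 fell in OCILy10 and TMD8 and 0 to 20 in DOHH2 and Toledo over the 34 alternatives that gave type means.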

Other observations

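The same contrast for NEO2734, known as an inhibitor of BET and CBP/p300 bromodomains, shares its DMSO libraries with that for OTX015, so the values are only set side by side. In a fit of all 13 groups the difference between the types was 1.74 with NEO2734 and 1.36 with OTX015 for ALKBH5. It was -3.19 with NEO2734 and -2.35 with OTX015 for ATF3. It was -1.51 with either compound for LIMA1, and -2.50 with NEO2734 and -2.30 with OTX015 for JUN.

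The difference of the OTX015 responses was below 0 for 15 of 15 mitochondrially encoded genes, with a median of -0.33 and 0 called. Without Toledo DMSO replicate 3 that median was -0.04.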
